A study of Mus musculus with 2 samples.

Results

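The genes described here are 48 genes of the G2 phase and mitosis, chosen for their role in cell division and all found among the 32285 genes counted in each library. They were followed in bone marrow LSK cells (lineage-negative, Sca-1 positive, c-Kit positive), the fraction that holds hematopoietic stem cells and early progenitors, by droplet-based single cell RNA sequencing of 3′ ends. Both libraries came from BCR-ABL+ mice aged 8 to 10 weeks, a tet-off model of chronic myeloid leukemia (CML) in which withdrawal of tetracycline switches on BCR-ABL through the SCL promoter, here for 2 weeks per the study methods. One library was made from mice with intact miR-142 (miR-142 WT CML, WT below) and the other from mice that also lacked Mir142 (miR-142 KO CML, KO below), so the transgene and its induction were shared by both. There was 1 library per genotype, and the sources used here do not give the number of mice behind each, so values are compared without any test. Intervals are exact 95% intervals of counting error and say nothing of how mice vary.

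Cells pass through mitosis under a kinase, Cdk1, that works only with its cyclin partners, and leave it when the anaphase-promoting complex destroys those cyclins. Genes of the spindle, the kinetochore and cytokinesis are transcribed together late in the cycle, so their transcripts mark cells in G2 and M, while replication genes peak earlier and mark S phase. In bone marrow most stem cells rest, while the more committed progenitors divide often.

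Cells were barcodes with at least 8000 unique molecular identifiers (UMIs, each one captured transcript) and under 10% mitochondrial UMIs. There were 5363 such cells in WT, at a median depth of 19443 UMIs, and 5458 in KO, at 24182 UMIs. Mitochondrial UMIs made up 2.85% of the median WT cell against 2.004% in KO, and 4 barcodes occurred in both libraries. The deletion was visible in Mir142hg, the host transcript of the miRNA, with 1260 UMIs in WT and 20 in KO (log2 ratio -6.17, -6.89 to -5.54). The sort marker Ly6a, which encodes Sca-1, stood at 96.8 CPM (UMIs per 1000000 UMIs of the library's cells) in WT against 152.9 in KO (log2 ratio 0.66), Kit at 86.4 and 68.3 CPM (-0.34) and Cd34 at 255 and 199 CPM (-0.36). Barcodes with at most 100 UMIs, which hold free RNA, carried the 48 genes at 23.0 UMIs per 8000 in WT and 20.1 per 8000 in KO. Even so, 27.1% of WT cells and 25.03% of KO cells held 3 or fewer UMIs of the 48 genes after random thinning of each cell to 8000 UMIs.

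The promoters of Cdk1, Ccnb1, Plk1 and Cdc20 are shown because the 48 genes are read as 1 late cell cycle program, and these 4 genes carry its engine, its trigger and its exit. Each line runs from 250 bases before to 50 bases after the start of the gene as RefSeq gives it on GRCm38.p6, 5′ to 3′ on the gene's strand. Capitals mark the letters TTTGAA and TTTAAA, the core of the cell cycle homology element through which late cell cycle genes are held off in resting cells, and CCAAT, the box read by NF-Y. Both strands were searched, so TTCAAA and ATTGG are also in capitals, and none of these motifs was required to stand apart from another. Cdk1 lies at chr10:69352863-69353162 on the minus strand, Ccnb1 at chr13:100786437-100786736 on the minus strand, Plk1 at chr7:122159185-122159484 on the plus strand and Cdc20 at chr4:118437294-118437593 on the minus strand.
Cdk1: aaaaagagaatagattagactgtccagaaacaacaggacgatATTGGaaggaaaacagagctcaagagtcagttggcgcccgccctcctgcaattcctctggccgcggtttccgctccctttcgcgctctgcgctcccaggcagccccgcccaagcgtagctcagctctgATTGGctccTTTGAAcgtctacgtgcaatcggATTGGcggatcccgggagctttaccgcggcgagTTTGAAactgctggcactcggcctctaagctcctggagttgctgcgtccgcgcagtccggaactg
Ccnb1: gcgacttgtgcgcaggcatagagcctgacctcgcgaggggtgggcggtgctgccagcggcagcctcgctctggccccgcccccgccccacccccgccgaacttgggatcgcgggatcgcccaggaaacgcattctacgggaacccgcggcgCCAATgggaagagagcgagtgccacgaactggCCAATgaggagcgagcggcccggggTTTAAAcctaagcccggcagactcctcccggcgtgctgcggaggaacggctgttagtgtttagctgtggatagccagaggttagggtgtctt
Plk1: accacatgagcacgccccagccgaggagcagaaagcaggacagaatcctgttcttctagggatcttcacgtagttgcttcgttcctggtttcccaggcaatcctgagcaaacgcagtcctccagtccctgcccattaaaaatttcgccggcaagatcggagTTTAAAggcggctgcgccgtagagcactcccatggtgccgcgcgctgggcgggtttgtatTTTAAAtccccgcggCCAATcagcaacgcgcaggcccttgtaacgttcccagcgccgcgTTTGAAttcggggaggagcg
Cdc20: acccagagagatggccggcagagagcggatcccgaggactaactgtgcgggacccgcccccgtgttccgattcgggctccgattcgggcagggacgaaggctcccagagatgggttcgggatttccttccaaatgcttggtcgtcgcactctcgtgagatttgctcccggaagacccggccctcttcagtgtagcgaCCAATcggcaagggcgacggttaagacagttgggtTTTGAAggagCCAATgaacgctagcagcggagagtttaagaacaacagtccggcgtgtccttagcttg
The Cdk1 window held 2 TTTGAA and 3 CCAAT matches, that of Ccnb1 1 TTTAAA and 2 CCAAT, that of Plk1 1 TTTGAA, 2 TTTAAA and 1 CCAAT, and that of Cdc20 1 TTTGAA and 2 CCAAT. RefSeq promoters were at hand for 40 of the 48 genes. Within 50 bases either side of the start, 27 of the 40 (67.5%) held TTTGAA or TTTAAA, against 8.24% of all 27025 promoters of the same length. Over the whole window of 300 bases, at least 2 CCAAT boxes stood in 22 of the 40 (55%), against 12.2% of all promoters. These matches describe the letters only and do not show that a factor binds.

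The first question was how many cells were in cycle. A cell was called G2/M when its thinned counts held at least 11 UMIs of the 48 genes, and S when it fell below that but held at least 19 UMIs of a list of 49 replication genes. Of the WT cells, 2829 (52.8%, 51.4 to 54.1) were called G2/M, and of the KO cells 3137 (57.5%, 56.2 to 58.8). S cells made up 22.4% (21.3 to 23.6) of WT and 17.8% (16.8 to 18.8) of KO. The G2/M call came first, and G2/M cells also held the replication list, at 4656 CPM in WT and 4108 in KO. That list stood at 5114 and 4814 CPM in S cells and at 1172 and 1094 CPM in cells out of cycle. Cells called G2/M may thus include cells in S phase, and the split between the 2 phases is a convention of the call. The share in either phase differed by less than the counting error, 75.2% in WT and 75.3% in KO, a difference of 0.103 ± 1.64 percentage points. It was -4.74 points with cells of at least 4000 UMIs, -2.08 with at least 16000 and -11.2 at 1 common composition of the cell groups described below. The shares of 75.2% and 75.3% hold only for cells that passed the UMI cutoff. Cells out of cycle had a median of 11174.5 UMIs in WT and 11421 in KO, against 28529 and 36206 in G2/M cells. Of 8525 WT and 7099 KO cells with over 300 UMIs, 5363 and 5458 were kept. What part the cutoff had in the level of these shares was not tested. The antibody-secreting-like cells, which were found in WT only, had 3 of 35 cells called G2/M (8.57%, 1.804 to 23.1) at a median of 28051 UMIs. Those 3 cells held 4484 CPM of the 48 genes, and whether they were dividing was not tested.

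The excess of G2/M cells in KO belonged to the low end of the range. The difference was 4.72 ± 1.88 points at 11 UMIs. At 22 UMIs it had turned, with 40.9% of WT cells and 38.9% of KO cells (difference -1.98 ± 1.86). At 44 UMIs 24.9% of WT and 16.8% of KO cells remained, and at 88 UMIs 4.96% and 1.58%. A threshold on the summed counts cuts a continuous range, and 358 WT cells (6.68%) and 496 KO cells (9.09%) lay within 20% of it. The direction of the G2/M share also turned with the UMI cutoff for cells, to -1.69 points with at least 16000 UMIs, while it stood at -0.0095 points with at least 4000.

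**Figure D1:**
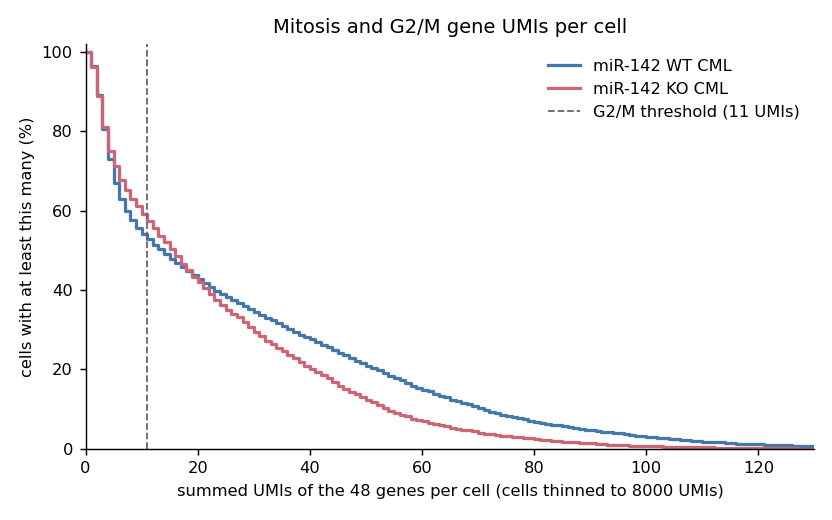
Share of cells (vertical axis, %) that held at least the number of UMIs of the 48 genes on the horizontal axis, in cells thinned to 8000 UMIs, for each of the libraries (WT blue, KO red). The dashed line is the G2/M threshold of 11 UMIs; KO lies above WT there (57.5% against 52.8%), the curves cross between 18 and 19 UMIs, and WT lies above at 44 UMIs (24.9% against 16.8%).

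G2/M cells of KO held less of the 48 genes. Their median was 41 thinned UMIs in WT and 30 in KO, and their summed level was 5461 CPM against 4314 CPM. S cells went the other way, with 677 CPM of the 48 genes in WT and 854 in KO. Cells called out of cycle held 330 CPM in WT against 312 in KO. In all these values the sum of the same 48 genes chose the cells. The threshold is a floor for G2/M cells and a ceiling for the others, and more KO cells lay near it. What part the call had in these levels was not tested here.

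The next question was which cells were called G2/M. Cells were gated by marker genes that share no gene with the 48, and 7 gated groups held at least 100 cells in both libraries. In each of the 7 the share of G2/M cells was lower in KO, in 5 of them by more than the counting error, although over the whole library it was higher. The mix of cells differed at the same time. Granule-high cells had high Elane, Mpo, Prtn3 and Ctsg, the neutrophil granule genes of myeloid progenitors. They were 8.32% of WT cells and 41.8% of KO cells. Cells that passed the granule gate and also carried monocyte markers were counted apart, as 6.38% of WT and 6.45% of KO cells. In both libraries granule-high cells had the highest G2/M share of the 7 groups apart from this monocyte-leaning counterpart. The granule markers were also more common in free RNA of KO, at 14645 CPM against 6250 in WT, while the gate was 50 thinned UMIs in both. Ungated cells held a median of 10 such UMIs in WT and 19 in KO, and megakaryocyte-like cells 3 in both. What part free RNA had in the share of granule-high cells was not tested.

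Among the 446 granule-high cells of WT 89.2% (86.0 to 92.0) were called G2/M, and among the 2281 of KO 77.0% (75.2 to 78.7), a difference of -12.3 ± 3.46 points. The separate granule-high monocyte-leaning cells, with markers such as Irf8 and Ly86, stood at 96.2% of 342 cells in WT and 80.1% of 352 cells in KO (-16.1 ± 4.82). Their gate takes any 3 monocyte markers, which differed in direction over all cells. Irf8 (-1.02), Ly86 (-1.61), Csf1r (-0.32), Ccr2 (-0.65) and Klf4 (-0.76) were lower in KO, and F13a1 (1.14) was higher. It was not tested whether this gate admitted like cells in both libraries. Both myeloid groups were deeper in WT before thinning, with a median of 54127 UMIs against 38975 in granule-high cells. The part of this depth in the difference was not tested, beyond the thinning to equal UMIs.

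Lymphoid-primed-like cells, marked by Flt3, Dntt and Satb1, had 46.4% of 1099 cells in G2/M in WT and 32.5% of 609 in KO (-13.9 ± 4.83). The gate takes any 4 of its markers, and some differed widely between the libraries. Ighm had 143778 UMIs in WT and 1074 in KO, Dntt was at -2.26 and Cd52 at 0.60. Whether the gate admitted like cells in both libraries was not tested. Basophil/mast-like cells, marked by Cpa3, Ms4a2 and Mcpt8, had 43.4% of 242 cells in WT and 31.5% of 333 in KO (-11.9 ± 8.21). The markers of this gate differed in direction over all cells, with Mcpt8 at -0.53 and Mcpt4 at 1.10. Whether the mix of cells within the group differed was not tested. Cells that passed no gate had 52.0% of 1780 in WT and 45.2% of 1134 in KO (-6.78 ± 3.76).

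In 2 groups the difference lay within the counting error. HSC-like cells, marked by Mecom, Hlf and Procr, had the lowest WT share of the 7 groups, 33.4% of 939 cells, against 30.6% of 232 in KO (-2.84 ± 6.84). A further 23.1% in WT and 12.5% in KO were called S. HSC-like cells were themselves 17.5% of WT and 4.25% of KO cells. Their gate takes any 3 markers. Over all cells Mecom, Hlf, Mllt3, Pdzk1ip1, Procr, Fgd5 and Meis1 were lower in KO (-2.68 to -0.53), while Ctnnal1 (0.39) and Hoxb5 (0.69) were higher. It was not tested whether this gate admitted like cells in both libraries. Megakaryocyte-like cells, marked by Pf4, Itga2b and Gp9, had 42.4% of 337 cells in WT and 39.1% of 220 in KO (-3.34 ± 8.56). The groups left out of the comparison for their size included erythroid-like cells, with 47.6% of 42 cells in WT and 56.3% of 80 in KO (8.63 ± 19.4). They also included innate lymphoid-like cells, with 5 of 11 cells in WT and 63 of 184 in KO.

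Both libraries were also weighted to 1 common composition of all groups found in both, the small ones left out above included. In that composition 60.5% of WT and 50.8% of KO cells were called G2/M, a difference of -9.72 points. In that weighting S cells were 19.8% of WT and 18.4% of KO. The direction over a whole library and the direction within its groups thus differed, and every group difference of this comparison stayed below 0 under each processing alternative that could be computed. Their sizes moved more. The difference in ungated cells was -2.01 ± 3.23 points with a granule gate of 100 UMIs and -4.73 ± 4.88 with cells of at least 16000 UMIs. With that cutoff it was -4.37 ± 7.48 in lymphoid-primed-like and -8.84 ± 11.7 in basophil/mast-like cells, so that none of these values passed the counting error. In granule-high cells it ranged from -17.9 to -7.73, the latter with a granule gate of 25 UMIs, and passed the error in all 12 settings. In granule-high monocyte-leaning cells it ranged from -16.5 to -6.87 and passed in 11 of 12. Megakaryocyte-like cells reached -13.8 with at least 4000 UMIs, beyond the error there, and HSC-like cells -7.06, also beyond it, when called by other kinetochore genes.

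**Figure D2:**
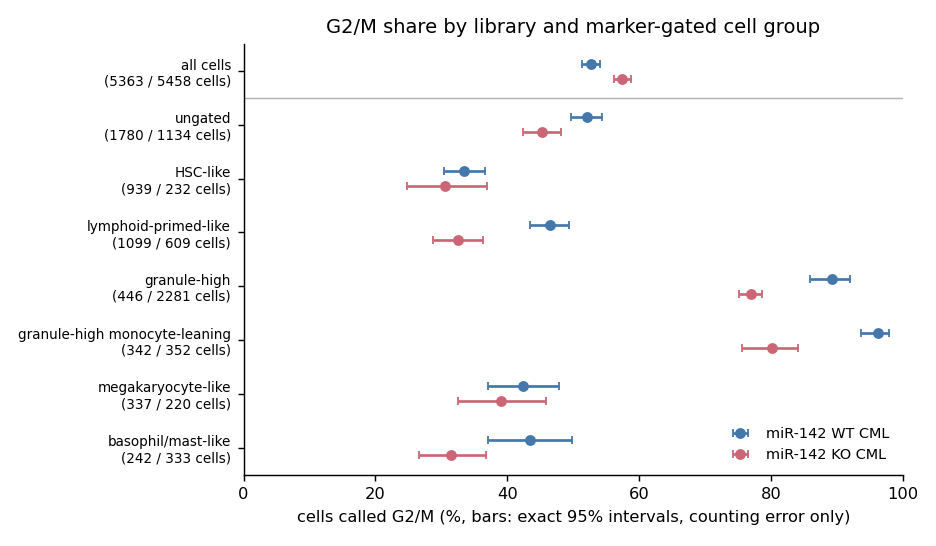
Share of cells called G2/M (horizontal axis, %) over all cells and in each of the 7 marker-gated groups, with cell numbers for WT and KO under each name; points are libraries and bars exact 95% intervals of counting error. Over all cells KO is higher (57.5% against 52.8%), while in each group KO is lower, as in granule-high cells (77.0% against 89.2%).

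Over all cells of a library, most of the 48 genes were lower in KO. Of the 48, 46 reached a mean of 10 CPM over both libraries, all but Mxd3 and Gtse1. Their median log2 ratio of KO over WT was -0.33, against -0.08 for the 7482 genes of that level. A gene was counted as lower when its CPM in KO was at most 80% of that in WT, and as higher when its CPM in WT was at most 80% of that in KO. In all, 23 of the 46 were lower by this limit, as were 18.8% of all tested genes, and 1 was higher, as were 7.6%. With a fold of 1.5 as the limit 8 of the 46 were lower, against 4.85% of all tested genes. The interval lay below 0 for 43 of the 46, against 53.2% of all tested genes. It lay above 0 for 2, Birc5 and Anln, against 30.7%, and held 0 for Cdca3. The summed level was 4066 CPM in WT against 3396 in KO.

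The size of the difference varied with role over the libraries as they stood, but most of that order was not kept once both had the same mix of cell groups. Without weighting, the median log2 ratio was -0.16 for the cyclins and their kinase, -0.18 for the mitotic kinases and checkpoint genes, -0.39 for kinetochore genes and -0.40 for spindle genes. With both libraries weighted to 1 common composition of cell groups the same medians were -0.37, -0.34, -0.37 and -0.37, and 26 of the 46 genes counted as lower, as did 7.3% of all tested genes. Genes of cyclin and entry-factor destruction (-0.24) and of cytokinesis (-0.18) stood closer to 0 in that weighting. Values that follow are unweighted unless said otherwise.

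Cdk1, the mitotic kinase, was at 189 CPM in WT against 177 in KO (log2 ratio -0.10, -0.12 to -0.07), close to the median of all genes, and at -0.31 at 1 composition, where that median was -0.06. Ccnb1, the main cyclin of mitotic entry, was at 95.7 and 86.4 CPM (-0.15). Ccnb2, its relative, was at 112 and 100.2 CPM (-0.16), and Ccna2, the cyclin of S phase and G2, at 92.2 and 82.6 CPM (-0.16). Annotated pseudogene copies of Ccnb1 and Ccnb2 exist in the mouse genome, so reads of these 2 genes may have been split or dropped in counting. Of the 7 genes of this class the F-box cyclin Ccnf (-0.41) and the phosphatase Cdc25b (-0.64) counted as lower. At 1 composition 4 did, with Ccnb1 (-0.39) and Ccna2 (-0.37) added, while Ccnb2 was at -0.10.

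Among the mitotic kinases and checkpoint genes, Aurka, which matures the spindle poles, was at 52.6 CPM in WT against 50.5 in KO (-0.06, -0.10 to -0.01) unweighted, at 0.02 with size factors in place of library totals, at -0.13 with at least 16000 UMIs per cell and at -0.36 at 1 composition. Plk1, the polo kinase of mitotic entry and exit, was at 49.6 and 44.7 CPM (-0.15, and -0.46 at 1 composition), and Aurkb, the kinase of the chromosomal passenger complex, at 100.5 and 92.7 CPM (-0.12, and -0.31). Bub1b, which holds anaphase back until chromosomes are attached, was at 45.4 CPM in WT against 32.0 in KO (-0.50, -0.56 to -0.45), and at -0.54 at 1 composition. Of the 7 genes of this class Bub1b and the checkpoint kinase Ttk (-0.33) counted as lower, and 4 did at 1 composition. The 3 genes of cyclin and entry-factor destruction had a median of -0.10. Cdc20, the activator of the anaphase-promoting complex, was at 110.6 CPM in WT against 103.5 in KO (-0.10), Ube2c, its ubiquitin-conjugating enzyme, at 324 and 299 CPM (-0.12), and Cdca3 at 105.8 and 105.2 CPM (-0.01).

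Among kinetochore genes, Cenpe, the kinesin that carries chromosomes to the spindle equator, was at 67.3 CPM in WT against 48.7 in KO (-0.47, -0.51 to -0.42), and Cenpf, a large kinetochore protein, at 121.8 and 92.2 CPM (-0.40, and -0.25 at 1 composition). Ndc80, the microtubule anchor of the outer kinetochore, had the lowest ratio of its class (-0.64). Birc5, or survivin, a passenger protein that sits beside Aurkb, was slightly higher in KO, at 265 and 273 CPM (0.04, 0.02 to 0.06), and the 8 genes of the class had a median of -0.39 with 5 counted as lower. The sign of Birc5 turned with the processing, to -0.02 with at least 16000 UMIs per cell and to -0.14 at 1 common composition of the cell groups.

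Of the 11 spindle genes that reached 10 CPM, 8 counted as lower, with a median of -0.40. Kif11, the motor that pushes spindle poles apart, was at 74.6 CPM in WT against 56.1 in KO (-0.41). Hmmr, a spindle pole adaptor, was at 80.8 and 61.99 CPM (-0.38), and Tpx2, the activator of Aurka on the spindle, at 109 and 92.4 CPM (-0.24). Psrc1, which binds microtubule ends, had the lowest ratio of all 48, at 21.7 CPM in WT against 11.8 in KO (-0.88, -0.96 to -0.79), 1.84-fold lower.

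The cytokinesis genes differed in direction. Kif23, the kinesin of the central spindle, was at 52.8 CPM in WT against 30.5 in KO (-0.79, -0.84 to -0.74), while Anln, the actin-binding scaffold of the cleavage furrow, was at 21.1 CPM in WT against 27.3 in KO (0.37, 0.30 to 0.44), 1.29-fold higher. Ect2, the exchange factor that starts furrow ingression, was at 26.0 and 23.6 CPM (-0.14). Genes of the mitotic chromosomes had the lowest median of the named roles, -0.50, and also at 1 composition, -0.48. Mki67, the proliferation antigen that coats mitotic chromosomes, was at 180.2 CPM in WT against 114.9 in KO (-0.65, -0.68 to -0.62), and Top2a, which untangles sister DNA, at 358 and 259 CPM (-0.47). Pimreg, a mitotic protein outside these roles, was at 40.1 and 22.8 CPM (-0.81).

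**Figure D3:**
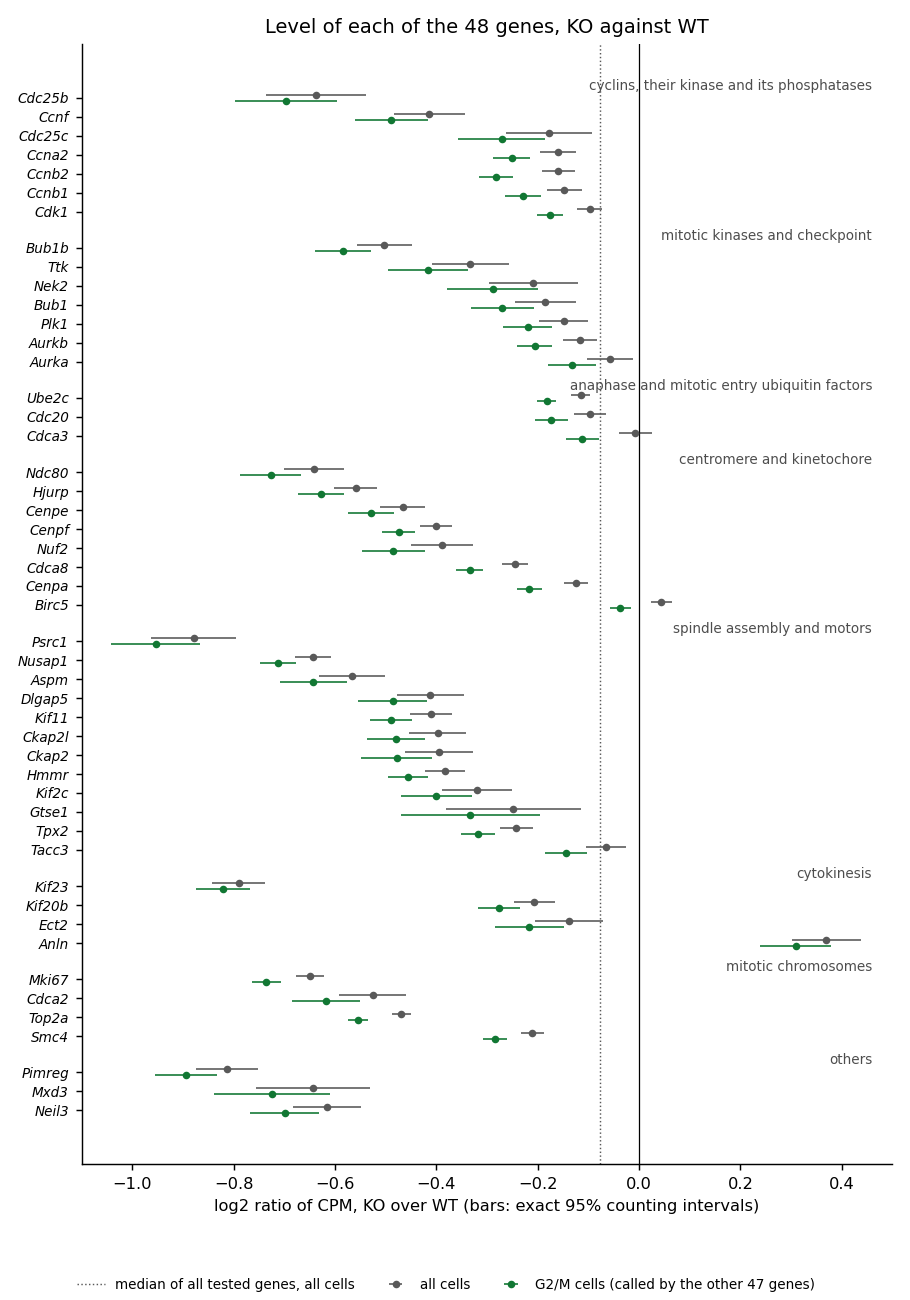
Log2 ratio of CPM, KO over WT (horizontal axis), for each of the 48 genes, grouped by role; grey points are all cells and green points the cells called G2/M by the other 47 genes, with exact 95% counting intervals and no weighting of cell groups, and the dotted line is the median of all tested genes (-0.08). Unweighted, several spindle, kinetochore and chromosome genes lie far left (Psrc1 -0.88, Mki67 -0.65), while Cdk1, Cdc20, Cdca3 and Birc5 lie near 0 (Cdk1 -0.10, which is -0.31 at 1 composition) and Anln lies to the right (0.37).

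The level within cells called G2/M was then given apart from the number of such cells. For each gene, G2/M cells were called by the other 47 genes alone, so that no gene chose its own cells. In these cells 47 of the 48 genes reached 10 CPM, and their median log2 ratio was -0.42, against -0.09 for other genes. By the same limits 26 of the 47 were lower, as were 19.8% of the 7324 genes tested in these cells, and 0 were higher, as were 7.25%. With a fold of 1.5 as the limit 12 of the 47 were lower, against 5.65% of all tested genes. The interval lay below 0 for 46 of the 47 (53.3% of all tested genes) and above 0 for 1, Anln (28.9%). These are counts of size against counting error, with no replicate behind them. The other 47 genes still set a floor for these cells, and more KO cells lay near it. With thresholds 1.5 times higher, doubled and 4 times higher the median was -0.39, -0.35 and -0.25, against -0.09 for other genes each time. What part the call had in these ratios was not tested.

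Mki67 stood at 247 CPM in G2/M cells of WT and 148 CPM in those of KO (log2 ratio -0.74, -0.76 to -0.71), and Top2a at 484 and 329 CPM (-0.55, -0.57 to -0.54). The lowest were again Psrc1, at 27.8 and 14.3 CPM (-0.95), Pimreg, at 55.1 and 29.7 CPM (-0.89), and Kif23, at 69.3 and 39.3 CPM (-0.82). The highest were Anln, at 28.0 and 34.6 CPM (0.31, 0.24 to 0.38), Birc5, at 365 and 356 CPM (-0.04), and Cdca3, at 143 and 133 CPM (-0.11). Unweighted medians were -0.59 for chromosome genes, -0.48 for kinetochore genes, -0.48 for spindle genes and -0.27 for the cyclins and their kinase. At 1 common composition of cell groups they were -0.33, -0.22, -0.19 and -0.20.

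Without weighting, Cdk1 was at 249 CPM in G2/M cells of WT and 221 CPM in those of KO (-0.18), Ccnb1 at 130.6 and 111 CPM (-0.23), Ccnb2 at 148 and 122 CPM (-0.28) and Ccna2 at 126 and 106 CPM (-0.25). The kinases were similar, with Aurka at -0.13, Aurkb at -0.21 and Plk1 at -0.22 on the log2 ratio scale, whereas the checkpoint gene Bub1b was at -0.58. Cdc20 and Ube2c were at -0.17 and -0.18. Cenpe and Cenpf were at -0.53 and -0.47, Kif11 at -0.49, Hmmr at -0.46, Tpx2 at -0.32 and Ect2 at -0.22.

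The mix of cell groups among G2/M cells also differed. Granule-high G2/M cells held 4514 CPM of the 48 genes in WT and 4036 CPM in KO, while HSC-like G2/M cells held 7533 and 7265 CPM, and KO had far more of the former. With both libraries weighted to 1 common composition of the 7 groups, an alternative added after the data were seen, the median over the 47 genes was -0.19, against -0.06 for 7258 other genes. Then 42 of the 47 ratios were below 0, 8 counted as lower, as did 6.79% of all tested genes, and 1 as higher, as did 5.63%. The 8 were Kif23 (-0.51), Mki67 (-0.45), Pimreg (-0.42), Ndc80 (-0.41), Psrc1 (-0.40), Bub1b (-0.38), Cdca2 (-0.36) and Hjurp (-0.33), and the 1 higher was Anln (0.42). Cenpa, Ccnb2, Birc5 and Cdc25c were at 0.04, 0.03, 0.04 and 0.03.

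Within each group the same genes could be followed separately. The median of the 48 log2 ratios in G2/M cells was below that of other genes in all 7 groups, from -0.10 against -0.06 in granule-high monocyte-leaning cells to -0.37 against 0.00 in basophil/mast-like cells. It was -0.23 in cells that passed no gate, -0.21 in lymphoid-primed-like, -0.18 in granule-high, -0.18 in megakaryocyte-like and -0.14 in HSC-like cells. The number of the 48 ratios below 0 ran from 30 in HSC-like cells to 46 in ungated cells. In HSC-like cells 12 intervals lay below 0 and 3 above, and in granule-high monocyte-leaning cells 21 and 6. In ungated cells these numbers were 35 and 1.

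Mki67 was lower in KO in each of the 7 groups, with ratios from -0.74 to -0.36. In granule-high G2/M cells it was at 169 CPM in WT against 132 in KO, in HSC-like ones at 408 and 264 CPM, and in basophil/mast-like ones at 271 and 162 CPM. Top2a was lower in all 7 groups (-0.47 to -0.21), as were Kif23 (-0.58 to -0.16), Ndc80 (-0.78 to -0.31), Bub1b (-0.55 to -0.21), Plk1 (-0.45 to -0.15) and Aurka (-0.22 to -0.07). The intervals of Mki67, Top2a and Ndc80 lay below 0 in 7 of 7 groups, those of Kif23 and Bub1b in 6, that of Plk1 in 5 and that of Aurka in 3, and held 0 in the other groups.

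Other genes did not share this pattern. Anln was higher in 6 of the 7 groups, though its interval held 0 in 4 of the 7. Its ratio was highest in granule-high monocyte-leaning cells, at 24.8 CPM in WT against 37.7 in KO (0.60, 0.42 to 0.78), and in granule-high cells (0.51, 0.38 to 0.65). In megakaryocyte-like cells Anln was at 42.3 and 34.4 CPM (-0.30, -0.76 to 0.15). Birc5 was below 0 in 2 of 7 groups, Ccnb2 and Cenpa in 3 of 7, and Cdc25c in 1 of 7. Their intervals held 0 in 4 groups for Birc5, 5 for Ccnb2 and Cenpa and 6 for Cdc25c. Cdc20 and Ube2c were below 0 in 4 of 7. The number of groups below 0 was 5 for Ccnb1 and Ccna2 and 6 for Cdk1.

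**Figure D4:**
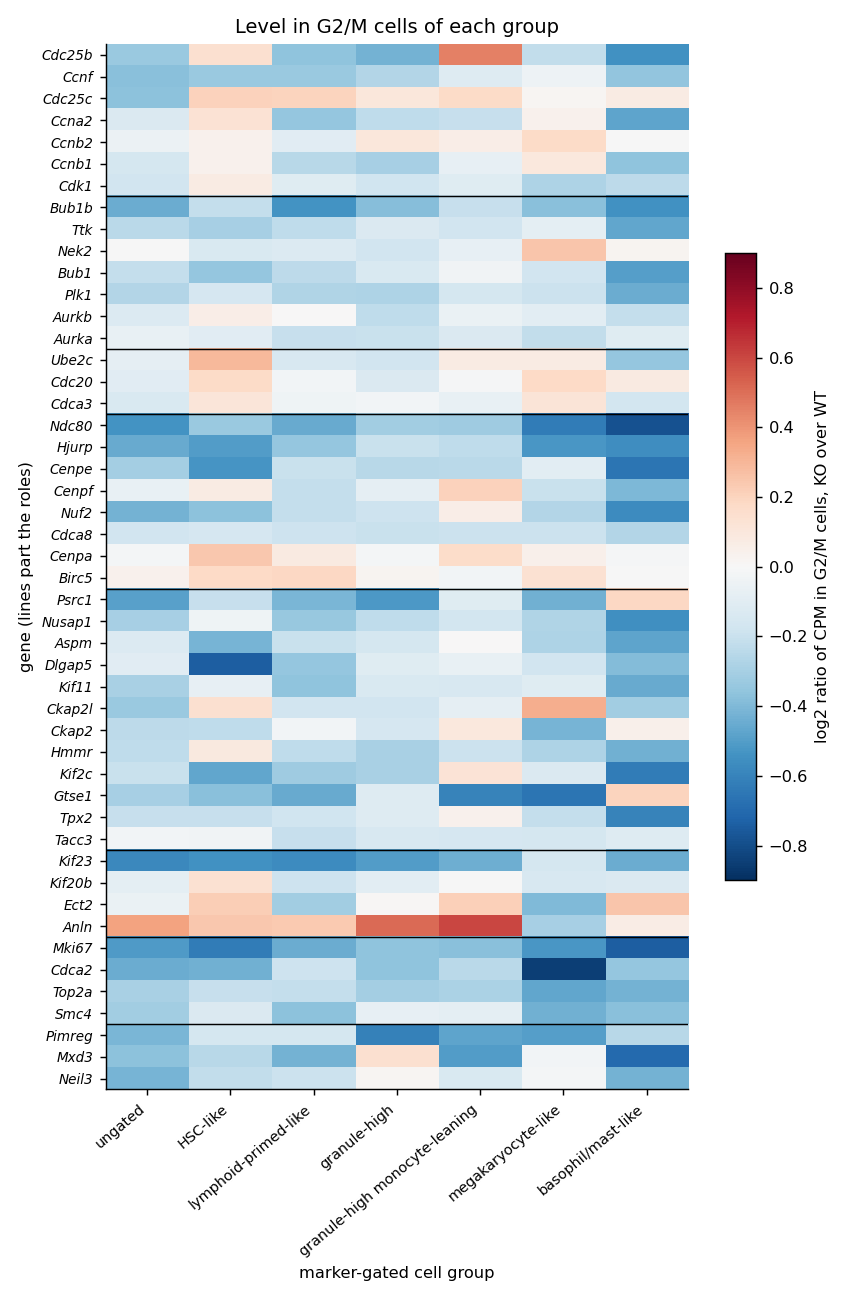
Log2 ratio of CPM in G2/M cells, KO over WT (colour, blue lower and red higher in KO), for the 48 genes (rows, parted by role) in the 7 marker-gated groups (columns). Mki67, Ndc80, Top2a and Bub1b are blue in every column (Mki67 from -0.74 to -0.36), Anln is red in 6 of 7 columns, and Cenpa and Birc5 stay pale (Birc5 from -0.03 to 0.19).

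Genes with long transcripts were lower in KO across the whole table, and several of the lowest members are long. Genes were split into 3 classes of equal size by the longest transcript that GENCODE annotates, with edges at 2403 and 4108 bases. The median log2 ratio over all cells for genes outside the 48 was 0.03 in the shortest class, -0.08 in the middle and -0.17 in the longest. For the 48 genes the medians were -0.12 over 9 genes, -0.33 over 23 and -0.41 over 14. The listed genes were thus below other genes of like length by 0.14, 0.26 and 0.24, and by 0.24, 0.32 and 0.31 in G2/M cells. The longest class held Mki67, Top2a, Cenpe and Cenpf, but also Anln and Cdk1, and the shortest held Cdc20, Ube2c and Cdca3, but also the lowest member, Psrc1. What part length had in the ratios was not tested.

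**Figure D5:**
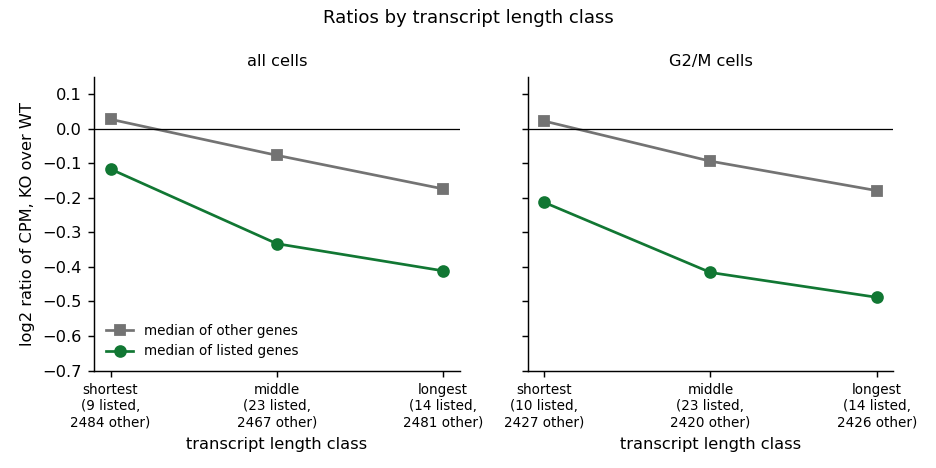
Median log2 ratio of CPM, KO over WT (vertical axis), in 3 classes of transcript length (horizontal axis, with numbers of genes) for listed genes (green circles) and all other tested genes (grey squares), over all cells and in G2/M cells. Both lines descend with length, and listed genes lie below other genes in each class, by 0.14 to 0.26 over all cells.

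Cell cycle genes outside the 48 were taken from fixed lists. Over all cells, 12 of 48 tested S phase and replication genes counted as lower in KO, against 18.8% of all tested genes, and 1 as higher, against 7.6%, with a median of -0.22. The lowest was Pola1, a subunit of the polymerase that starts DNA strands, at 52.5 CPM in WT against 37.3 in KO (-0.49). The highest was Ccne2, the cyclin of S phase entry, at 14.6 and 19.9 CPM (0.45). In cells called S, where the replication list chose the cells, that list stood at 5114 CPM in WT against 4814 in KO.

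Further kinetochore, cohesin and checkpoint genes had 8 of 31 lower and 0 higher by the same limits, with Cenpt lowest (-0.48) and Cenpw highest (0.21). Spindle, motor and cytokinesis genes outside the 48 had 10 of 22 lower and 0 higher, with the midbody gene Cep55 lowest, at 30.1 CPM in WT against 20.5 in KO (-0.55), and the tubulin Tuba1c highest, at 71.3 and 85.8 CPM (0.27). Condensin and mitotic chromatin genes had 6 of 16 lower, with the lamina gene Tmpo lowest (-0.53) and the histone variant H2afz highest, at 2464 CPM in WT against 3028 in KO (0.30). All 3 lists thus had a larger share of lower genes than the 18.8% of all tested genes, the kinetochore, cohesin and checkpoint list by the least. These shares are not weighted to 1 composition of cell groups.

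Regulators of the cyclin kinase stood near that background, with 4 of 22 lower and 0 higher, Melk lowest (-0.47) and Cdkn3 highest (0.19). Of 11 tested transcriptional drivers of the cycle 2 counted as lower and 0 as higher. Among them Foxm1, the activator of late cell cycle genes, was at 12.1 CPM in WT against 10.3 in KO (-0.24, -0.34 to -0.14), and is named here after its value was seen. Mybl2, which works with the MuvB complex at the same promoters, was at 22.7 and 28.3 CPM (0.31, 0.25 to 0.38), and Rbl2, a pocket protein that holds such promoters off in resting cells, was lowest at 15.9 and 12.4 CPM (-0.36).

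In G2/M cells more genes of these lists passed the limit. Counted as lower were 17 of 23 spindle, motor and cytokinesis genes, 14 of 32 kinetochore, cohesin and checkpoint genes and 8 of 16 condensin and chromatin genes, against 19.8% of all tested genes. The list medians were -0.38, -0.30 and -0.31. Lowest in them were Cep55 (-0.65), Esco2 (-0.53) and Tmpo (-0.58), and highest were Fam83d (0.42), Pttg1 (0.17) and H2afz (0.24). S phase genes had 15 of 49 lower and 1 higher, with Pold1 lowest (-0.53) and Ccne2 highest (0.39). Regulators of the cyclin kinase had 5 of 22 lower, with Melk lowest (-0.56) and Anapc16 highest (0.13), and drivers 4 of 11, with Rbl2 lowest (-0.36) and Mybl2 highest (0.24). Genes of quiescence, summed, were at 239 CPM in WT against 213 in KO over all cells. Within that sum Btg2 was at 107 and 78.3 CPM (-0.46), and Ndn had 209 UMIs in WT and 24 in KO (-3.32). Cdkn1b (-0.16) and Rb1 (-0.03) were also below 0, while Cdkn1c (0.01), Btg1 (0.06) and Cdkn1a (0.29) were not. The intervals of Rb1 and Cdkn1c held 0.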

How the data were processed

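Single cell 3′ libraries of sorted LSK cells were examined, 1 per genotype. The authors aligned reads with Cell Ranger and deposited raw UMI counts per gene and barcode, unfiltered and not normalized. The submitters' processing notes give Cell Ranger 6.1.2 and build mm10, while the file headers name Cell Ranger 4.

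Counts were read as deposited. Cells had at least 8000 UMIs and under 10% mitochondrial UMIs, a cutoff above the 300 UMIs of the study methods, and were thinned to 8000 UMIs for phase calls, which left out 0 of these cells. The G2/M threshold (11 UMIs) and the S threshold (19 UMIs) were set by Otsu's method on log2(sum + 1) with both libraries weighted equally. Levels are unthinned counts summed per library, as CPM, with a minimum mean of 10 CPM. Ratios carry exact conditional binomial 95% intervals and shares Clopper-Pearson 95% intervals. Errors of share differences combine both half-widths in quadrature. PCR copies are collapsed by UMI, and intervals cover counting error only.

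Groups came from marker genes in thinned cells, later rules overriding earlier ones: at least 3 distinct markers for HSC-like, 4 for lymphoid-primed-like, megakaryocyte-like, innate lymphoid-like and basophil/mast-like, 5 for antibody-secreting-like, 50 summed UMIs and 3 markers for granule-high, 3 for monocyte-leaning, and 8 UMIs with 2 markers for erythroid-like. Doublets were kept, since the study methods name no removal. Scrublet (scanpy 1.11.5) marked 0.0186% of WT and 0% of KO cells by itself and so had not worked, and an alternative left out its 230 (4.29%) and 238 (4.36%) top-scoring cells. Named genes were 20 members chosen by role plus the 3 lowest and 3 highest ratios in each comparison, and in each further list the lowest and highest gene; other names, among them Ndc80, Ccnf, Cdc25b, Ttk, Hjurp, Cdca2, Cenpa and Cdc25c, were chosen after their values were seen. Gene positions and lengths came from GENCODE on GRCm38 and matched all 48 genes. The calculations were tested on simulated data. The genes, lists and groups were chosen with earlier results of these data known, and the gating rules after the data were seen.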

Additional observations from a re-analysis of the deposited data

How the results depend on the processing

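Values below are differences of shares in percentage points (KO minus WT) or median log2 ratios (KO over WT). With at least 16000 UMIs per cell the share in cycle differed by -2.08 and the G2/M share by -1.69, the median over all cells was -0.39 and Birc5 was at -0.024. With at least 4000 UMIs the shares differed by -4.74 and -0.0095. At 1 common composition of cell groups they differed by -11.2 and -9.72 and Birc5 was at -0.14 over all cells. In G2/M cells a common composition of the 7 compared groups, added after the data were seen, gave a median of -0.19. There 8 of 47 genes counted as lower, with Ccnb2 at 0.030 and Birc5 at 0.045. Thresholds 1.5 times higher moved the G2/M difference to 0.760. With size factors the medians were -0.25 over all cells and -0.33 in G2/M cells, with Aurka at 0.020 over all cells and Birc5 at 0.051 in G2/M cells. With a minimum of 50 CPM they were -0.18 with 8 of 24 genes lower and -0.28 with 11 of 27 lower, fewer genes being tested. With a fold of 1.5, 8 genes were lower over all cells and 12 in G2/M cells.

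Other alternatives chosen after seeing the data were these. Doubled thresholds gave -2.14 for the share in cycle, -1.98 for G2/M, a G2/M-cell median of -0.35 and Birc5 at 0.0060. Thresholds 4 times higher gave -8.95, -8.02 and -0.25, with Ube2c at 0.10 and Birc5 at 0.059. A call by other kinetochore genes gave a G2/M difference of 1.48. KO cells weighted to WT phase shares gave a median of -0.39 and Birc5 at -0.0065. Where not shown by the setting itself, the cause was not tested. The median of the 48 genes was below that of other genes, and below 0, in every setting run. All 75 group differences of G2/M share were below 0. Over named genes, 10 of 480 ratios turned and 158 moved beyond counting error. No paired analysis was possible because each genotype had 1 library, which also left no replicate to leave out. Depth limits the genes under 10 CPM, Mxd3 and Gtse1 over all cells, and the groups with few KO cells.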

Other observations

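Members of the list also left values in cells outside G2/M, which belong to no comparison of the report, and the genes named here were chosen after their values were seen. In cells called S by the other genes, Birc5 was at 34.6 CPM in WT against 84.8 in KO (log2 ratio 1.30, 1.18 to 1.41). Cdca3 was at 15.9 and 37.2 CPM there (1.22, 1.05 to 1.40), Ccnb2 at 26.5 and 50.3 CPM (0.93, 0.79 to 1.07) and Ccnb1 at 10.9 and 18.9 CPM (0.80, 0.57 to 1.03). Top2a was at 105 CPM in both libraries (0.00, -0.08 to 0.08). The call of these cells puts a ceiling on the summed counts of the other 47 genes, and KO cells lay closer to it, with a median of 5 thinned UMIs against 4 in WT.

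Among cells called out of cycle, Kif23 was at 13.1 CPM in 1332 WT cells against 3.11 in 1350 KO cells (log2 ratio -2.07, -2.53 to -1.64), from 215 and 54 UMIs. The difference had the same direction in ungated cells, with 36 UMIs in WT and 9 in KO from 373 and 356 cells, and in lymphoid-primed-like cells, with 47 and 12 UMIs from 308 and 294 cells. Basophil/mast-like cells held 69 UMIs in 105 WT cells and 17 UMIs in 204 KO cells. Top2a in out-of-cycle cells was at 17.4 CPM in WT against 16.4 in KO (-0.08, -0.32 to 0.16).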
